A study of Mus musculus with 10 samples.

Results

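The genes described here are 38 interferon-stimulated and antigen presentation genes of the mouse, out of 23924 usable gene symbols in the tables. They were taken as a named list, matched by gene symbol in a KrasT and a MycT expression table, and all 38 were found in both. By role the list holds 5 signal transducers and interferon regulatory factors, 3 cytosolic RNA sensors, 17 antiviral effectors, 2 guanylate-binding proteins, 3 immunoproteasome subunits, 5 genes of MHC class I presentation, 2 of class II presentation and the checkpoint ligand gene Cd274.

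RNA was sequenced from whole pancreatic tumour tissue, flash-frozen, of 2 models that the labels call KrasT and MycT. The tumours had been transplanted orthotopically into athymic nude mice, a strain without a thymus and so with few mature T cells, and this host is common to all groups. Untreated tumours (0 days of doxycycline) gave 3 KrasT and 2 MycT libraries. Doxycycline tumours came from hosts that had the drug in drinking water (100 ug/ml, with 2.5% sucrose) for 2 weeks, and gave 3 KrasT and 2 MycT libraries. Doxycycline is the drug that switches tetracycline-controlled transgenes, and the series title places the study in tumour cells whose oncogenic driver is absent. The build of the transgenes, the promoter behind them and the age of the mice were not given in the sources used here. Nor is it said whether the tumours of a model go back to 1 donor line, so each p-value measures the spread between these libraries only. No sucrose is named for untreated mice, so effects of the drug, of sucrose and of the transgene cannot be told apart. Levels are in FPKM, that is fragments relative to gene length and library size.

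Interferons are secreted signals. Type I interferons act through JAK kinases on a complex that holds STAT2 and IRF9, which binds a DNA element called ISRE and switches on antiviral genes. Interferon gamma acts through a DNA element called GAS and raises the machinery that cuts peptides and loads them onto MHC molecules. Class I molecules show peptides on nearly all cells, whereas class II molecules are mostly made by dendritic cells, B cells and macrophages. Tumours that lower these genes are less visible to T cells.

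To show what the regulatory DNA of such genes looks like, promoter bases just upstream of the RefSeq start sites are printed for 5 members whose roles span the list. All are GRCm38.p6 (the tables themselves were made on mm9 and hold no coordinates) and read 5′ to 3′ on the strand of the gene. Capitals mark letters of the ISRE core GAAANNGAA or of the GAS motif TTCNNNGAA, searched on both strands, where ISRE matches may overlap each other. Isg15 (chr4:156200819-156200968, minus strand) has 3 overlapping ISRE matches in its 150 bases, Ifit1 (chr19:34640739-34640888, plus strand) has 3, and Gbp2 (chr3:142620513-142620662, plus strand) has 1. Psmb8 (chr17:34198045-34198194, plus strand) has 1 GAS match. The Tap1 window of 225 bases (chr17:34187331-34187555, plus strand) is the stretch between the start sites of Tap1 and Psmb9, which are read in opposite directions, and neither motif is in it.
Isg15: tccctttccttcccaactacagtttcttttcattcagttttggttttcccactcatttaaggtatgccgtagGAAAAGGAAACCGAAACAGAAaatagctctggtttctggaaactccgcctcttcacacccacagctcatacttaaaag
Ifit1: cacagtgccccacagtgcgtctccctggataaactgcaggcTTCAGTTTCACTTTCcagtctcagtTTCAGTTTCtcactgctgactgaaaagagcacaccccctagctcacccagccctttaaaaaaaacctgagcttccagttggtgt
Gbp2: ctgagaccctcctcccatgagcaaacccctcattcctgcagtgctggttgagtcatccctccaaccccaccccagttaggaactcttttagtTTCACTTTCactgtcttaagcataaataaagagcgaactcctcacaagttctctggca
Psmb8: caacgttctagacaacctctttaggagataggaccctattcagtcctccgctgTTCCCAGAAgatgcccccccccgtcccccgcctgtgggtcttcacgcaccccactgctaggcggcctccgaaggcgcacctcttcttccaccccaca
Tap1: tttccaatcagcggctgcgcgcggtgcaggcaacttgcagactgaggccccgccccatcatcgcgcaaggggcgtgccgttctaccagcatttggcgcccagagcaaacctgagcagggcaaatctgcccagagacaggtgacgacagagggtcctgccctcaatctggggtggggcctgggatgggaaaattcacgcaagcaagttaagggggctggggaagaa

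A promoter of 300 bases (250 before to 50 after the start site) was in the RefSeq table for 27 of the 38 members. The ISRE core was found in 15 of these 27 (55.6%), against 9.76% of all 27025 genes with such a window. By role it was in 8 of 12 antiviral effectors, 2 of 2 RNA sensors, 2 of 2 guanylate-binding proteins, 1 of 4 signal transducers, 1 of 3 class I genes, 0 of 3 immunoproteasome genes and the Cd274 window. GAS was found in 5 of 27 (18.5%), against 9.55% of all genes. These are letter matches in 1 window per start site, given as a description.

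**Figure D1:**
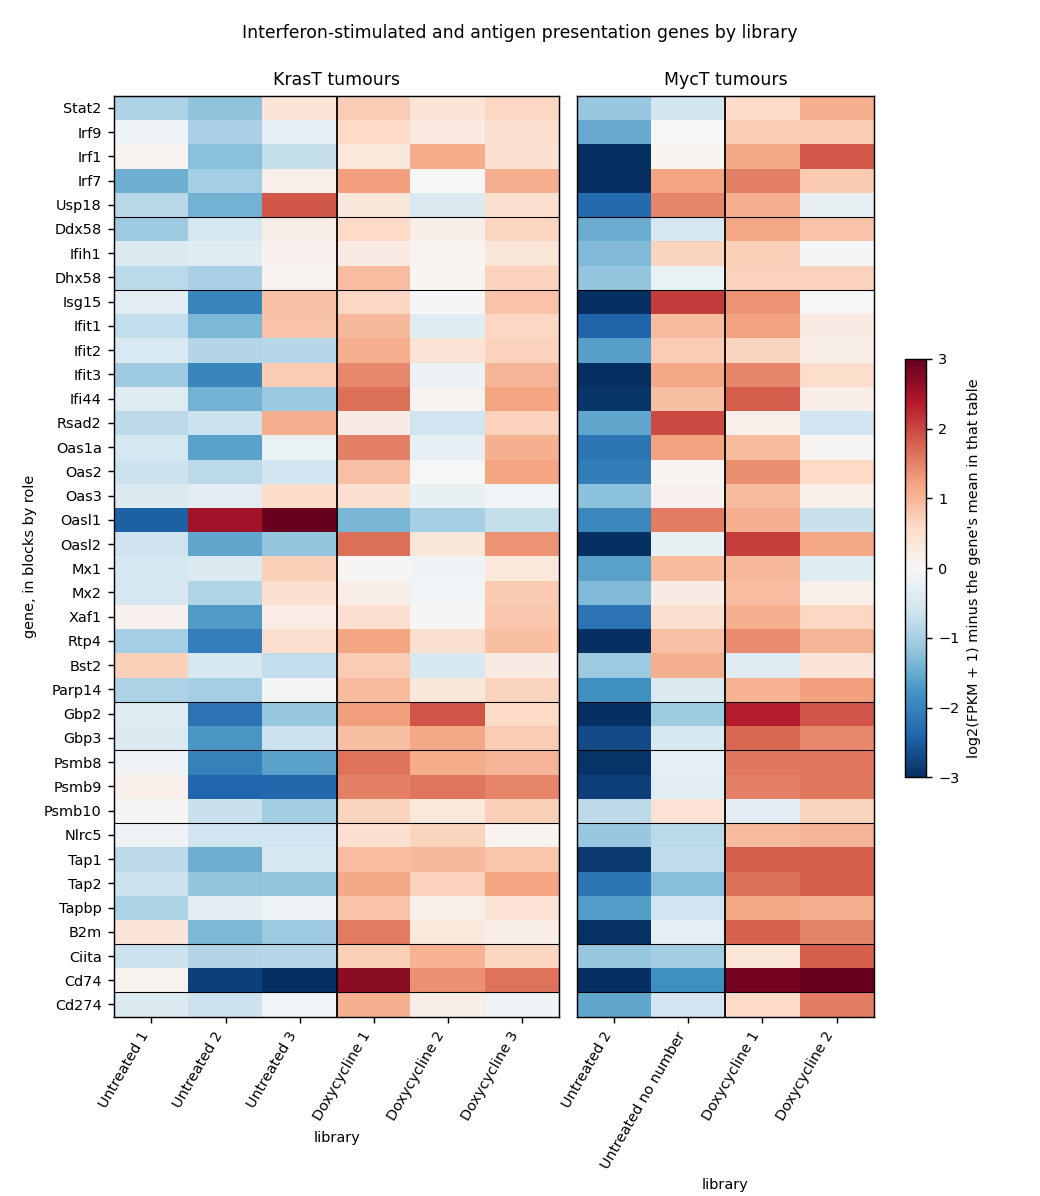
Level of each of the 38 genes (rows, in blocks by role) in each of the 10 libraries (columns), as log2(FPKM + 1) minus the gene's mean over the libraries of that table. Colours end at 3 and -3. Untreated MycT replicate 2 is the lowest library of its table for all 38 genes, while the untreated MycT library without a replicate number and untreated KrasT replicate 3 are high for many antiviral genes and below the table mean in the Psmb8, Psmb9 and class II rows.

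Libraries differed in ways that bear on these genes. Total FPKM was 789672 to 1018968 in untreated KrasT, 513949 to 569272 after doxycycline, 1126800 and 1517332 in untreated MycT, and 546008 and 557227 after doxycycline. Relative depth could be read from the steps between low values. With untreated KrasT replicate 1 set to 1, KrasT libraries spanned 0.756 to 1.19. With untreated MycT replicate 2 set to 1, MycT libraries spanned 0.621 to 1. Read totals are not in the tables. Rn45s, a ribosomal RNA precursor, was at 17238 FPKM in KrasT doxycycline replicate 1 and at 20880 in MycT doxycycline replicate 2, and at most 2231 elsewhere. Across genes, Pearson's r of untreated KrasT replicate 1 with the other 2 untreated KrasT libraries was 0.823 and 0.839, against 0.966 between those 2 and 0.874 for the untreated MycT pair. The number of 1 untreated MycT column is in no label, and that column is called the unnumbered library. Counts of called genes are therefore given with and without each library.

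In KrasT, the genes that rose after doxycycline included both peptide transporter genes, 2 of 3 immunoproteasome subunits, both guanylate-binding proteins, both class II genes and 4 antiviral effectors. Of 34 members with enough expression to test, 12 passed limma's Benjamini-Hochberg adjusted p of 0.05, all higher after doxycycline, against 8.46% of all 12696 genes tested. These were Tap1, Tap2, Psmb8, Psmb9, Gbp2, Gbp3, Ciita, Cd74, Oasl2, Ifi44, Ifit2 and Parp14. Ciita and Ifit2 were tested through doxycycline libraries alone, so for these genes a rise is partly built in. At an unadjusted p under 0.05 there were 23 of the 34, against 4311 of the 12696 genes tested. The median log2 change of FPKM + 1 over the 34 was 1.29, against -0.10 over all genes, and 33 of the 34 changes were positive. Every doxycycline library was above every untreated one for 16 of the 34 members, against 16.8% of all genes tested. Oas2, Oas3, Mx1 and Nlrc5 were below the filter of 1 FPKM in 3 libraries. Counting them, 18 of 38 members had this separation, none had the opposite one, and the mean was higher after doxycycline in 36 of 38.

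The calls rested on few libraries. In the 6 limma fits that used all 6 KrasT libraries (the stated settings and 5 alternatives of pseudocount, filter, scaling and joint fit), 7 members were called each time: Ciita, Gbp2, Gbp3, Psmb8, Psmb9, Tap1 and Tap2. Leaving out doxycycline replicates 1, 2 and 3 in turn left 4, 5 and 0 members called, and leaving out untreated replicates 1, 2 and 3 left 16, 1 and 0. The same fits called 7.91%, 7.15% and 0.945%, and 33.3%, 2.69% and 0.89%, of all genes in either direction. Without untreated replicate 1, Oasl1 was among the 16 and was lower after doxycycline. Tap2 was called in 4 of these 6 fits, Ifit2 and Ciita in 3, Ifi44, Oasl2 and Tap1 in 2, Gbp2, Gbp3, Psmb8, Psmb9 and Cd74 in 1 and Parp14 in 0.

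The median change of the members was larger in MycT tumours than in KrasT, but with only 2 libraries per group. No member passed the test of a difference between the models in the main setting. Without untreated replicate 2, the direction of 12 of the 38 MycT changes reversed. Limma on the 4 MycT libraries called 0 of 38 members, and 18 had an unadjusted p under 0.05, against 4284 of the 12834 genes tested. Over all 12834 genes it called 1 higher gene (0.00779%). In a joint limma fit of all 10 libraries, which shares 1 estimate of the spread, 16 of 34 members passed, all higher after doxycycline, against 8.11% of the 12073 genes in that fit. Those were Tap1, Tap2, Tapbp, B2m, Psmb8, Psmb9, Gbp2, Gbp3, Ciita, Cd74, Cd274, Irf1, Stat2, Ddx58, Oasl2 and Parp14. Ciita was here too tested through doxycycline libraries alone. The median log2 change over the 38 members was 2.00, against 0.04 over all genes, and 37 of the 38 were positive. Both doxycycline libraries were above both untreated ones for 23 of 38 members, against 31.9% of all genes tested. For all 38 members, untreated replicate 2 was below both doxycycline libraries, against 42.6% of all genes tested. Leaving out doxycycline replicates 1 and 2 from the joint fit left 5 and 3 members called, leaving out untreated replicate 2 left 4, and leaving out the library without a number raised the count to 25. Over all genes those fits called 5.64%, 4.49%, 7.45% and 17.4% in either direction. Of the 10 joint fits that left out 1 library, Tap1 and Tap2 were called in 10, Gbp2 and Cd74 in 9, Ciita and Cd274 in 8, and Ddx58, Oasl2, Parp14, Gbp3, Psmb8, Tapbp and B2m in 7. Stat2 was called in 3 of them, and Irf1 and Psmb9 in 2.

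Between the KrasT calls and the joint MycT calls, 10 genes were shared, 10 of 12 in KrasT and 10 of 16 in MycT. They were Tap1, Tap2, Psmb8, Psmb9, Gbp2, Gbp3, Ciita, Cd74, Oasl2 and Parp14. The joint fit takes its spread from the KrasT libraries too, so the 2 sets of calls are not independent. The share of all genes called in both is not given here. No member differed between the models by the test of the difference itself. Limma called 0 of 34 members, against 0.24% of 12073 genes in either direction. At an unadjusted p under 0.05 there were 3 of the 34, against 2406 of the 12073 genes. The smallest p was that of Tap2, whose change was larger in MycT by 1.45 ± 0.48 (SE, log2; adjusted p = 0.153). Tap1 followed with 1.83 ± 0.78 (0.237), Tapbp with 1.27 ± 0.55 (0.244), Cd274 with 1.39 ± 0.66 (0.284) and Cd74 with 2.78 ± 1.5 (0.335). Without the unnumbered library, untreated MycT replicate 2 is alone in its group. Calls of that fit are not read as results about the members.

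**Figure D2:**
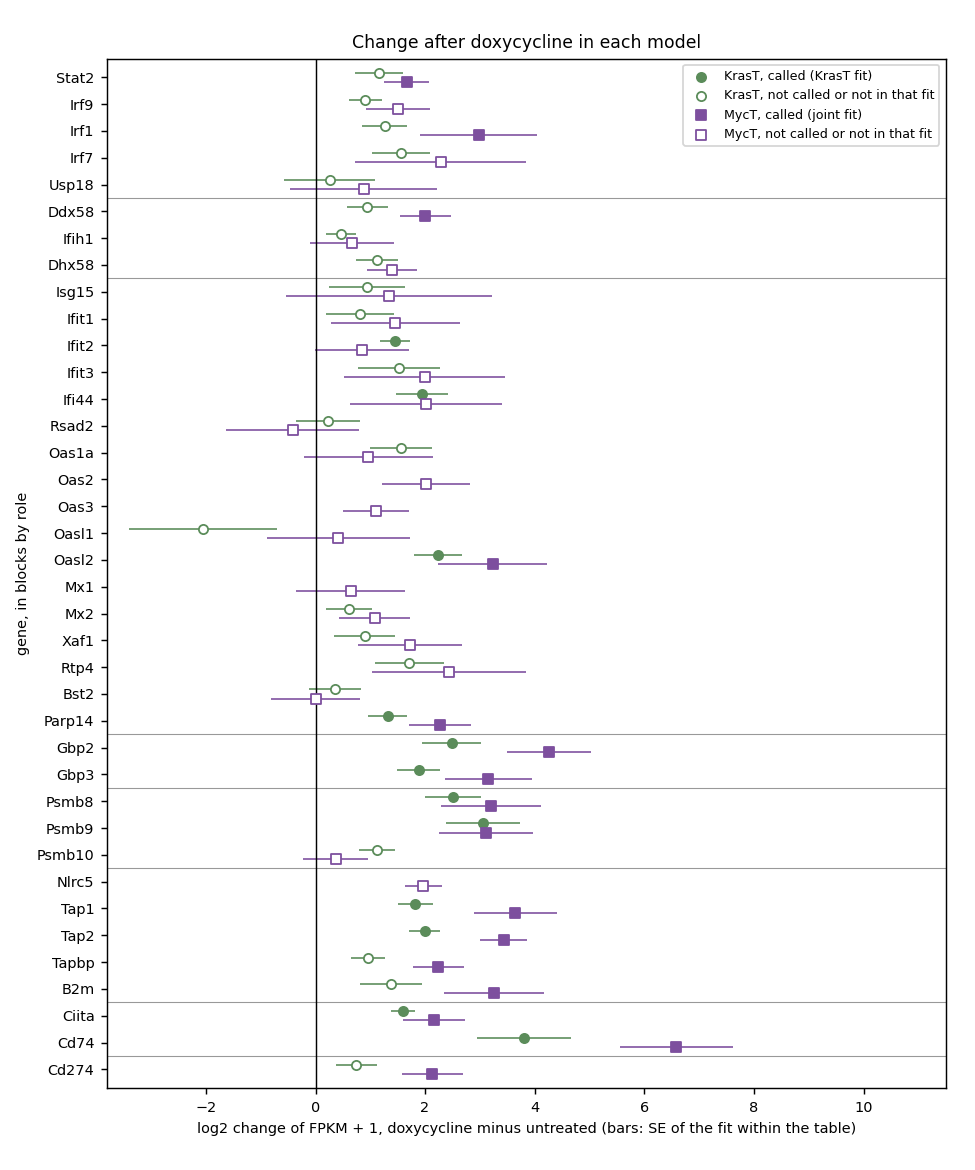
Log2 change of FPKM + 1 (x axis), doxycycline minus untreated, for each of the 38 genes (y axis), KrasT as circles and MycT as squares. Bars are the standard error of the limma fit within each table, and filled points passed (12 in the KrasT fit, 16 in the joint fit for MycT). Oas2, Oas3, Mx1 and Nlrc5 have no KrasT point because they were not tested there.

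The peptide transporter of class I presentation rose in KrasT and, in the joint fit, in MycT. Tap1 and Tap2 code for the pair of proteins that pumps peptides into the endoplasmic reticulum. Tap1 was at 3.32, 1.71 and 4.40 FPKM in the untreated KrasT libraries and at 13.2, 13.8 and 12.3 after doxycycline. In MycT it was at 0.555 in untreated replicate 2 and 5.68 in the unnumbered library, against 39.5 and 39.3 after doxycycline. The groups did not overlap in either model. Its log2 change was 1.82 ± 0.32 (SE) in KrasT (limma adjusted p = 0.0174) and 3.65 ± 0.60 in MycT (joint limma fit, adjusted p = 0.00729). Tap2 was at 5.66, 3.59 and 3.61 FPKM untreated and 21.6, 15.7 and 22.4 after doxycycline in KrasT, and at 1.12 and 2.92 (replicate 2 and unnumbered) against 28.7 and 31.8 in MycT. For this gene too no untreated library reached a doxycycline one. The changes of Tap2 were 1.99 ± 0.29 (limma adjusted p = 0.0117) and 3.44 ± 0.38 (joint limma fit, 0.00503).

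Tapbp, which codes for tapasin, the bridge between the transporter and class I molecules, had 32.9, 50.7 and 57.4 FPKM in untreated KrasT and 117, 71.8 and 87 after doxycycline. The groups were apart, but the change of 0.96 ± 0.31 did not pass (limma adjusted p = 0.0765). In MycT it had 14.6 and 32.6 FPKM untreated and 110.2 and 104 after doxycycline, and passed in the joint limma fit (2.24 ± 0.43, adjusted p = 0.0108). B2m, the light chain of every class I molecule, was the most abundant of the class I members, at 693, 206 and 246 FPKM in untreated KrasT and 1555, 663 and 606 after doxycycline. Untreated replicate 1 lay above 2 of the doxycycline libraries, and the gene did not pass (1.38 ± 0.57, limma adjusted p = 0.139). In MycT, B2m had 80.4 and 512 FPKM untreated against 2141 and 1772 after doxycycline (3.25 ± 0.88, joint limma fit, adjusted p = 0.0320). Nlrc5, the transactivator of class I genes, was low everywhere, from 0.0103 to 0.422 FPKM untreated and from 0.657 to 3.92 after doxycycline over both models, with no overlap in either. It was tested in MycT only, through its doxycycline libraries alone, and did not pass there (limma adjusted p = 0.0652).

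Other genes of class I presentation moved less evenly. Of 10 heavy chain and loading genes tested in KrasT, 0 were higher and 1 was lower, Pdia3, a chaperone of the loading complex (log2 change -1.03, limma adjusted p = 0.0478, and 0.0682 and 0.350 under median-ratio scaling and quantile normalization). The heavy chain gene H2-D1 had a KrasT change of 0.20 (limma adjusted p = 0.800) and a MycT change of 2.64 (joint limma fit, adjusted p = 0.0310). H2-T23, a nonclassical class I gene, had 1.02 (0.0585, and 0.0464 and 0.0218 under those 2 scalings) and 2.59 (joint fit, 0.0238). These 2 were the called genes of the 10 in the joint MycT fit, where 8.11% of all genes were called higher. In KrasT that share was 8.46%. Heavy chain genes are near-identical copies, so their values are uncertain.

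The immunoproteasome is a form of the proteasome whose 3 catalytic subunits replace the constitutive ones and change which peptides are cut. Psmb8 had 18, 4.0 and 5.71 FPKM in untreated KrasT and 62.3, 43.1 and 40.8 after doxycycline. In MycT it had 3.71 in untreated replicate 2, 28.9 in the unnumbered library, and 108 in both doxycycline libraries. Its changes were 2.51 ± 0.51 (limma adjusted p = 0.0242) and 3.20 ± 0.83 (joint limma fit, adjusted p = 0.0289). Psmb9 had 12.5, 1.33 and 1.40 FPKM against 33.7, 36.4 and 32.6 in KrasT, and 3.51 and 24.1 against 88.7 and 93.0 in MycT. For both genes the untreated libraries all lay below the doxycycline libraries, with untreated KrasT replicate 1 nearest to them. Psmb9 changed by 3.06 ± 0.67 (limma adjusted p = 0.0289) and 3.11 ± 0.93 (joint limma fit, 0.0445). Psmb10 behaved less clearly, at 33.1, 20.1 and 15.1 FPKM against 51.9, 40.7 and 54.3 in KrasT, where it was separate but not called (1.13 ± 0.33, limma adjusted p = 0.0586). In MycT, Psmb10 had 41.0 and 96.5 untreated and 57.5 and 115 after doxycycline, and the groups overlapped (0.37 ± 0.51, joint limma fit, adjusted p = 0.642).

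The constitutive counterparts went the other way. Among all genes tested, 1047 of 12696 were called lower in KrasT and 1484 of 12073 in the joint MycT fit. Of Psmb5, Psmb6 and Psmb7, Psmb5 and Psmb7 were lower in KrasT (log2 changes -1.21 and -1.11, limma adjusted p = 0.0215 and 0.0261) and all 3 were lower in the joint MycT fit (-1.53, -1.34 and -1.36, adjusted p = 0.00805, 0.0135 and 0.0142). Under quantile normalization neither KrasT gene passed (-0.59 and -0.49, limma adjusted p = 0.130 and 0.234). In the fit of MycT alone none of the 3 passed, and quantile normalization moved their changes to -0.87, -0.64 and -0.69 (limma adjusted p = 0.159, 0.222 and 0.199). The ratio of FPKM of an immunoproteasome subunit to its counterpart needs no scaling between libraries. Psmb8 over Psmb5 was 0.0763, 0.0176 and 0.0335 in untreated KrasT and 0.645, 0.468 and 0.503 after doxycycline. In MycT it was 0.0140 and 0.111 untreated (replicate 2 and unnumbered) and 1.13 and 1.27 after doxycycline. Thus Psmb8 was the scarcer subunit in every untreated library and slightly the more abundant one in both doxycycline MycT libraries. Psmb9 over Psmb6 went from 0.0211 ± 0.0237 (SD, n = 3) to 0.264 ± 0.0170 in KrasT, and from 0.0133 and 0.0786 to 0.763 and 0.863 in MycT. Psmb10 over Psmb7 went from 0.104 ± 0.0314 (SD, n = 3) to 0.510 ± 0.156 in KrasT. In MycT that ratio was 0.163 and 0.313 untreated and 0.476 and 1.20 after doxycycline, so all 3 ratios separated the groups in both models. No test was run on the ratios.

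**Figure D3:**
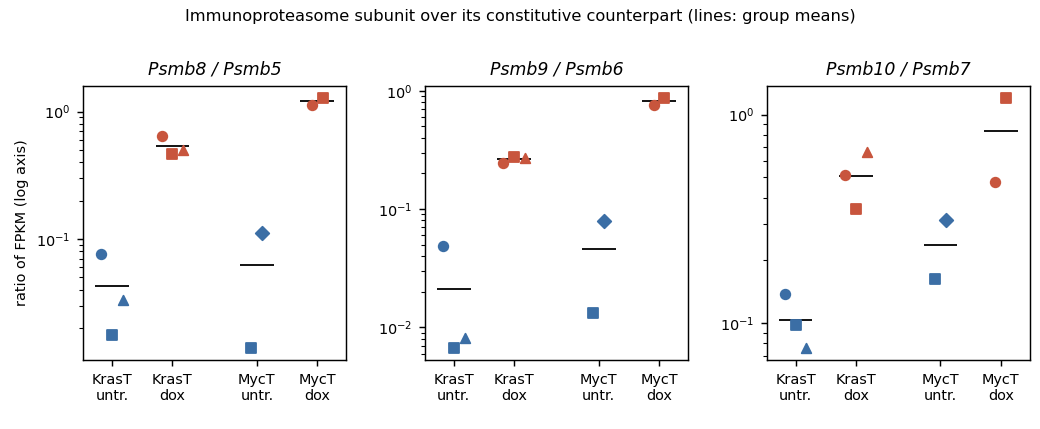
Ratio of FPKM (y axis, log scale) of each immunoproteasome subunit to its constitutive counterpart, 1 point per library (circles, squares and triangles for replicates 1, 2 and 3, a diamond for the MycT library without a number), lines at group means. Doxycycline libraries (red) lie above untreated ones (blue) in all 3 panels, at 0.468 to 0.645 in KrasT and 1.13 and 1.27 in MycT for Psmb8 over Psmb5.

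Both class II genes of the list rose, and Cd74 had the largest log2 change of all tested members in either model. Cd74 codes for the invariant chain, which guards the class II groove until peptide is loaded. It was at 296, 38.4 and 33.4 FPKM in untreated KrasT and 1817, 715 and 847 after doxycycline. In MycT it was at 5.49 in untreated replicate 2 and 47.6 in the unnumbered library, against 1266 and 2296. All doxycycline libraries were above all untreated ones, with untreated KrasT replicate 1 high among its group. The log2 changes were 3.81 ± 0.85 (limma adjusted p = 0.0302) in KrasT and 6.59 ± 1.16 (joint limma fit, adjusted p = 0.00835) in MycT. Ciita, the master activator of class II transcription, was at 0.215, 0.0284 and 0.0525 FPKM untreated and 2.13, 2.90 and 1.97 after doxycycline in KrasT. In MycT it was listed at 0 in untreated replicate 2, at 0.0741 in the unnumbered library, and at 1.84 and 6.61 after doxycycline. It changed by 1.60 ± 0.23 (limma adjusted p = 0.0113) and 2.17 ± 0.43 (joint limma fit, 0.0117), values that the added 1 FPKM holds down for a gene this low. Ciita reached 1 FPKM in no untreated library, so it was tested through its doxycycline libraries alone. Its KrasT call stood without a filter on low values, while that of Cd74 was lost.

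Class II helper genes outside the 38 rose in KrasT, and both chains and helpers rose in the joint MycT fit. Of 9 class II chain and helper genes tested in KrasT, 3 rose. Over all genes tested, 8.46% rose there and 8.11% in the joint MycT fit. The 3 were H2-DMb2 (2.48, limma adjusted p = 0.0447), H2-DMa (1.87, 0.0364) and H2-Oa (1.47, 0.0237), which code for proteins that regulate peptide loading. H2-Oa was tested through doxycycline libraries alone. Under quantile normalization 5 of the 9 passed. In the joint MycT fit 7 of 9 rose, led by H2-Eb1 (5.80, adjusted p = 0.0161) and H2-Aa (5.48, 0.0124). H2-Aa, a class II alpha chain, had 136, 9.99 and 12.7 FPKM in untreated KrasT and 372, 193 and 210.0 after doxycycline, and did not pass there (3.18 ± 0.93, limma adjusted p = 0.0610).

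Some markers of cells that carry class II also differed. Of 10 dendritic cell markers, 6 were tested in KrasT and 5 were higher (Clec10a 2.12, Batf3 1.67, Cd209a, Clec9a and Zbtb46), and their summed level was 2.61 to 18.1 FPKM untreated and 28.3 to 97.8 after doxycycline. In MycT the sum was 3.16 and 9.02 FPKM untreated and 50.5 and 61.6 after doxycycline, with 3 of 4 tested markers called in the joint fit. Flt3, a defining dendritic cell gene, was listed at 0 in untreated KrasT replicate 2 and in the unnumbered MycT library and was at most 1.04 FPKM elsewhere. Of 12 macrophage markers 3 were called in KrasT, with a summed level of 286 to 853 FPKM untreated and 799 to 3618 after doxycycline. In MycT that sum was 485 and 863 untreated and 1180.4 and 2549.8 after doxycycline, and 2 of 11 were called in the joint fit. Of 5 pan-leukocyte markers 1 was called in each model, with sums of 93.8 to 273 FPKM against 153 to 554 in KrasT and 35.9 and 202 against 399 and 548 in MycT. One of these markers, Cd53, singled out after its values were seen, went the other way in KrasT, at 150, 68.9 and 59.9 FPKM untreated and 57.1, 13.2 and 16.2 after doxycycline (log2 change -1.83, limma adjusted p = 0.0831). The 6 B cell markers summed to 0.695 to 1.33 FPKM untreated and 5.09 to 48.7 after doxycycline in KrasT, and to 2.91 and 5.02 against 24.8 and 114 in MycT, with 1 of 2 and 2 of 2 tested markers called. In untreated KrasT replicates 2 and 3, 3 and 4 of the 6 B cell markers were listed at 0. Cd209a, Clec9a, Zbtb46 and the B cell marker Cd79a reached 1 FPKM in no untreated KrasT library. They were tested through doxycycline libraries alone, so the counts of called dendritic and B cell markers favour a rise. Over all genes tested, 8.46% were called higher in KrasT and 8.11% in the joint MycT fit. In bulk tissue, fewer cells of a type and less RNA per cell cannot be told apart. Under quantile normalization 0 of 6 dendritic cell, 1 of 12 macrophage and 0 of 2 B cell markers passed in KrasT. The part of these cells in the class II and other results was not tested.

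**Figure D4:**
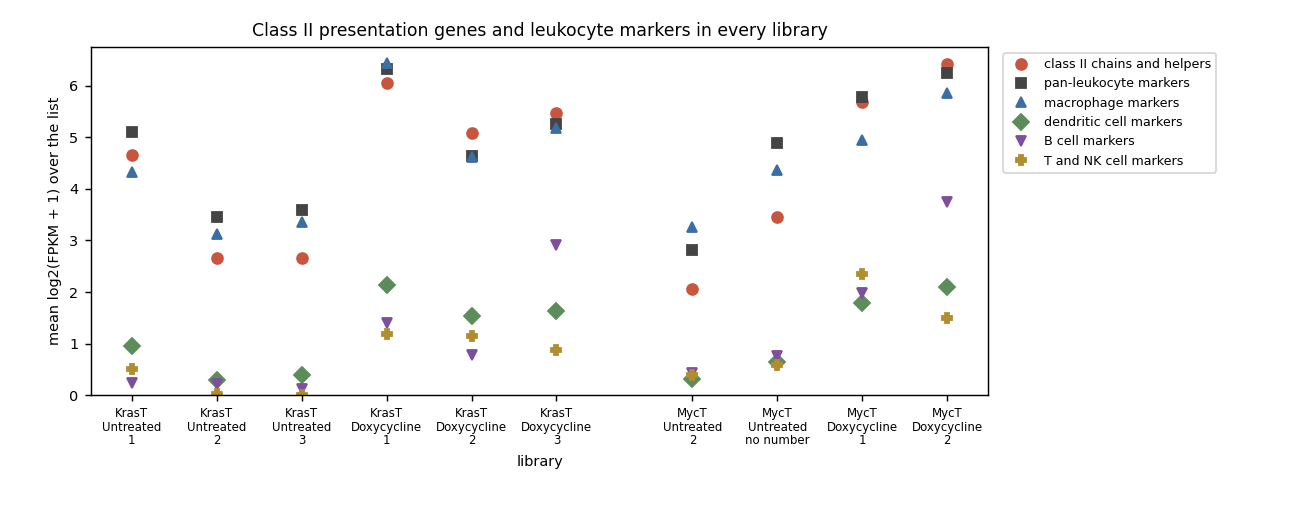
Mean log2(FPKM + 1) (y axis) of 10 class II chain and helper genes and of 5 sets of leukocyte markers in each of the 10 libraries (x axis). Class II genes, pan-leukocyte, macrophage and dendritic cell markers are higher in untreated KrasT replicate 1 than in the other untreated KrasT libraries, and lowest in MycT in untreated replicate 2.

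Markers of other cells also differed with doxycycline. Among all genes tested, 8.46% were called higher in KrasT and 8.11% in the joint MycT fit. Of 10 T and NK cell markers 4 were tested in KrasT and 0 passed, with sums of 0.0466 to 4.76 FPKM untreated and 11.1 to 19 after doxycycline. Of the 10, 7 and 9 were listed at 0 in untreated KrasT replicates 2 and 3, and 5 in untreated MycT replicate 2. Cd3g, Gzma and Nkg7 passed the KrasT filter, which the joint fit also needs, through doxycycline libraries alone. In MycT the sums were 5.72 and 5.80 untreated and 26 and 59.9 after doxycycline, with Gzma (2.75) and Nkg7 (2.73) called in the joint limma fit (adjusted p = 0.00950 and 0.0193). Neutrophil markers were called in 2 of 4 in KrasT and 1 of 4 in the joint MycT fit, and their sum in the unnumbered untreated MycT library, 443 FPKM, exceeded the 369.9 and 359 after doxycycline. Endothelial markers rose in 7 of 8 in KrasT (sums 14.0 to 28.6 against 70.1 to 155 FPKM) and in 7 of 8 in the joint MycT fit (7.69 and 30.7 against 58.0 and 109.9). Of these markers, Kdr, Tek and Vwf also passed the KrasT filter through doxycycline libraries alone, so the endothelial counts favour a rise. Fibroblast markers rose in 7 of 8 and 6 of 8 (327 to 717 against 3879 to 9121 FPKM, and 36.6 and 452 against 1633 and 2341). Of 9 epithelial markers 2 were lower in KrasT (sums 2377 to 18547 against 287 to 1731 FPKM) and 1 was higher in the joint MycT fit (497 and 1567 against 909 and 1849). Of the acinar markers 0 of 6 were called in either, with sums of 24.4 to 382 FPKM untreated and 138 to 14958 after doxycycline in KrasT, and 98.3 and 362 against 110.0 and 1679 in MycT. Under quantile normalization 4 of 8 endothelial and 0 of 9 epithelial markers passed in KrasT. The part of these cell types in the changes of the 38 genes was not tested.

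Guanylate-binding proteins, GTPases that attack pathogen vacuoles and are typical interferon gamma targets, rose in both models. Gbp2 was at 5.98, 0.981 and 3.19 FPKM in untreated KrasT and 20.7, 32.6 and 12.8 after doxycycline, and at 0.508 and 5.55 against 69.7 and 50.2 in MycT. Its log2 changes were 2.48 ± 0.54 (limma adjusted p = 0.0280) and 4.26 ± 0.77 (joint limma fit, adjusted p = 0.00917), the largest in the list after Cd74 in MycT. Gbp3 was at 2.11, 0.259 and 1.73 FPKM against 6.94, 8.41 and 6.16 in KrasT, and at 0.448 and 5.72 against 29.6 and 24.1 in MycT (1.88 ± 0.39, limma adjusted p = 0.0256, and 3.15 ± 0.67, joint limma fit, 0.0154). No untreated library reached a doxycycline one for either gene. Related GTPases outside the 38 rose too: Gbp6 by 2.18 in KrasT and 3.04 in MycT (limma adjusted p = 0.0104 and, in the joint fit, 0.00503) and Igtp by 1.87 and 4.15 (0.0434 and, in the joint fit, 0.00626). Gbp6 reached 1 FPKM in no untreated library of either model. It was tested through doxycycline libraries alone, so its rise is partly built in.

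Of the 5 signal transducers and interferon regulatory factors, 0 were called in KrasT and 2, Stat2 and Irf1, in the joint MycT fit. Among all genes tested, 8.46% and 8.11% were called higher in these fits. Stat2, a transcription factor downstream of type I interferon, was at 2.38, 1.82 and 7.5 FPKM untreated and 9.72, 7.46 and 8.94 after doxycycline. Untreated replicate 3 lay within the doxycycline range, and the change was 1.16 ± 0.45 (limma adjusted p = 0.120). In MycT, Stat2 was at 1.94 and 3.41 FPKM against 8.53 and 12.6 (1.67 ± 0.51, joint limma fit, adjusted p = 0.0489). Irf1, a transcription factor induced by interferon gamma, was at 20.3, 7.45 and 11.2 FPKM against 24.1, 42.9 and 26.5 in KrasT, apart but not called (1.26 ± 0.41, limma adjusted p = 0.0784). In MycT, Irf1 was at 1.36 in untreated replicate 2 and 19 in the unnumbered library, against 41.5 and 67.5, and passed in the joint limma fit (2.97 ± 0.86, adjusted p = 0.0410).

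Irf7, which amplifies type I interferon, had 2.57, 3.90 and 9.996 FPKM in untreated KrasT and 22.4, 8.92 and 20.3 after doxycycline, with overlap (1.56 ± 0.52, limma adjusted p = 0.0855). In MycT it had 0.876 in untreated replicate 2 but 46.2 in the unnumbered library, between the 58.0 and 34.6 after doxycycline (2.28 ± 1.24, joint limma fit, adjusted p = 0.214). Irf9, the DNA-binding partner of STAT2, ranged from 3.55 to 13.0 FPKM over the 5 untreated libraries and from 17.6 to 22.1 over the 5 doxycycline ones, separate in both models and called in neither. Usp18, which restrains the interferon receptor, ranged from 0.172 to 15.2 FPKM untreated and 1.67 to 11.6 after doxycycline, and its highest values in both tables were in untreated libraries. Usp18's KrasT direction, 0.26, turned to -0.19 under quantile normalization. Outside the 38, the genes of both type I receptor chains rose in the joint MycT limma fit, Ifnar2 by 1.56 (adjusted p = 0.0366) and Ifnar1 by 1.06 (0.0362).

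The 3 RNA sensors are helicases that detect viral RNA in the cytosol. In KrasT 0 of 3 were called, and in the joint MycT fit 1 of 3. Among all genes tested, 8.46% and 8.11% were called higher in these fits. Ddx58, which codes for RIG-I, was at 1.38, 2.54 and 4.75 FPKM untreated and 6.65, 4.70 and 6.94 after doxycycline in KrasT, where the groups overlapped (0.95 ± 0.38, limma adjusted p = 0.131). Its MycT levels were 0.481 and 1.93 against 8.26 and 6.54 and passed (2.00 ± 0.47, joint limma fit, adjusted p = 0.0211). Dhx58, which codes for LGP2, was at 0.543, 0.375 and 1.91 FPKM against 4.17, 1.85 and 3.38 in KrasT (1.13 ± 0.39, limma adjusted p = 0.0901), and at 0.548 and 2.07 against 4.74 and 4.70 in MycT. Ifih1, which codes for MDA5, ranged from 1.01 to 7.02 FPKM untreated and 3.29 to 7.31 after doxycycline and overlapped in both models. A further list held Toll-like receptors and other sensors, adaptors, kinases and interferon regulatory factors. Of its 13 tested genes 0 were called in either model. Those of smallest p in KrasT were Zbp1 (1.82, limma adjusted p = 0.0537) and Irf5 (1.93, 0.0616). In the joint MycT limma fit they were Irf8 (2.04, adjusted p = 0.0610) and Ikbke (1.91, 0.0643). Of 6 genes that restrain the response 1 rose in each model, the DNA-degrading nuclease gene Trex1 (1.01, limma adjusted p = 0.0484, and 1.27, joint fit, 0.0320). Its KrasT call was lost under quantile normalization (adjusted p = 0.0556).

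Of 17 antiviral effectors, 14 were tested in KrasT and 4 rose, and 2 of 14 passed in the joint MycT fit. The shares of all genes called higher in these fits were 8.46% and 8.11%. Oasl2, of the oligoadenylate synthetase-like family, was at 3.14, 1.18 and 1.84 FPKM in untreated KrasT and 19.2, 7.04 and 15.3 after doxycycline, and at 0.275 and 7.72 against 41.9 and 21.8 in MycT. It was apart in both models, with changes of 2.23 ± 0.43 (limma adjusted p = 0.0220) and 3.23 ± 0.83 (joint limma fit, 0.0273). Parp14, an ADP-ribosyltransferase, was at 1.36, 1.25 and 3.42 FPKM against 7.79, 4.75 and 6.17 in KrasT, and at 0.342 and 2.56 against 8.98 and 10.2 in MycT (1.32 ± 0.36, limma adjusted p = 0.0485, and 2.28 ± 0.51, joint limma fit, 0.0175). Ifi44 was at 1.14, 0.0511 and 0.299 FPKM untreated and 7.79, 1.99 and 5.35 after doxycycline in KrasT (1.94 ± 0.47, limma adjusted p = 0.0367). Its MycT levels were 0.0497 in untreated replicate 2 and 13.7 in the unnumbered library, the latter between the 26.7 and 8.12 after doxycycline (2.02 ± 1.10, joint limma fit, 0.215). Ifit2, of a family that binds foreign RNA, was at 0.532, 0.130 and 0.162 FPKM against 3.42, 1.77 and 2.36 in KrasT (1.45 ± 0.27, limma adjusted p = 0.0203). In MycT the unnumbered library, at 5.75 FPKM, was above both doxycycline libraries (5.28 and 3.52), and untreated replicate 2 was at 0.287. Ifit2 reached 1 FPKM in no untreated KrasT library, so it was tested there through doxycycline libraries alone. The KrasT calls of Ifi44, Ifit2 and Parp14 were lost under quantile normalization and in the joint fit. Those of Ifi44 and Parp14 were also lost without a filter, that of Parp14 with a pseudocount of 0.1, and that of Oasl2 in the joint fit.

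Isg15, a ubiquitin-like modifier and a classic interferon target, showed how far untreated tumours differed among themselves. It was at 9.64, 2.4 and 23.5 FPKM in untreated KrasT and 19.3, 11.8 and 22.9 after doxycycline, so the highest value of all 6 was in an untreated library (0.94 ± 0.70, limma adjusted p = 0.384). In MycT, Isg15 was at 1.36 in untreated replicate 2 and 109.8 in the unnumbered library, against 64.8 and 24.5 after doxycycline (1.34 ± 1.54, joint limma fit, adjusted p = 0.559). Bst2, which codes for tetherin and was the most abundant effector, was at 133, 55.9 and 47.5 FPKM against 137, 57.6 and 94.9 in KrasT, and at 95.3 and 439 against 156 and 269.6 in MycT. Its groups overlapped in both models (limma adjusted p = 0.643, joint fit 0.998). Oasl1, singled out after its values were seen, was the member with the one negative KrasT change. It was at 0.623 FPKM in untreated replicate 1, 49.98 and 69.5 in untreated replicates 2 and 3, and 2.44, 3.42 and 4.42 after doxycycline (-2.05 ± 1.35, limma adjusted p = 0.331). The other 10 effectors, Ifit1, Ifit3, Rsad2, Oas1a, Oas2, Oas3, Mx1, Mx2, Xaf1 and Rtp4, were called in neither model and lay between 0 and 31.1 FPKM in all libraries. Of these, Oas2, Oas3 and Mx1 were not tested in KrasT or in the joint fit. Oas2 was separate in both models and Oas3, Xaf1 and Rtp4 in MycT, while Rsad2, viperin, had the one negative MycT change (-0.42). Rsad2's KrasT change of 0.23 turned to -0.35 under quantile normalization. Members with close copies, such as Ifit3, Oas1a, Oasl1, Mx1 and Gbp3, are uncertain where reads could be split between copies.

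The checkpoint ligand gene Cd274, whose product PD-L1 dampens T cells and is raised by interferon gamma, was at 1.16, 0.848 and 1.71 FPKM in untreated KrasT and 4.97, 2.27 and 1.62 after doxycycline. These overlapped (0.75 ± 0.37, limma adjusted p = 0.201). In MycT it was at 0.332 and 1.62 against 4.88 and 10.4, apart, and passed in the joint limma fit (2.13 ± 0.51, adjusted p = 0.0224).

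**Figure D5:**
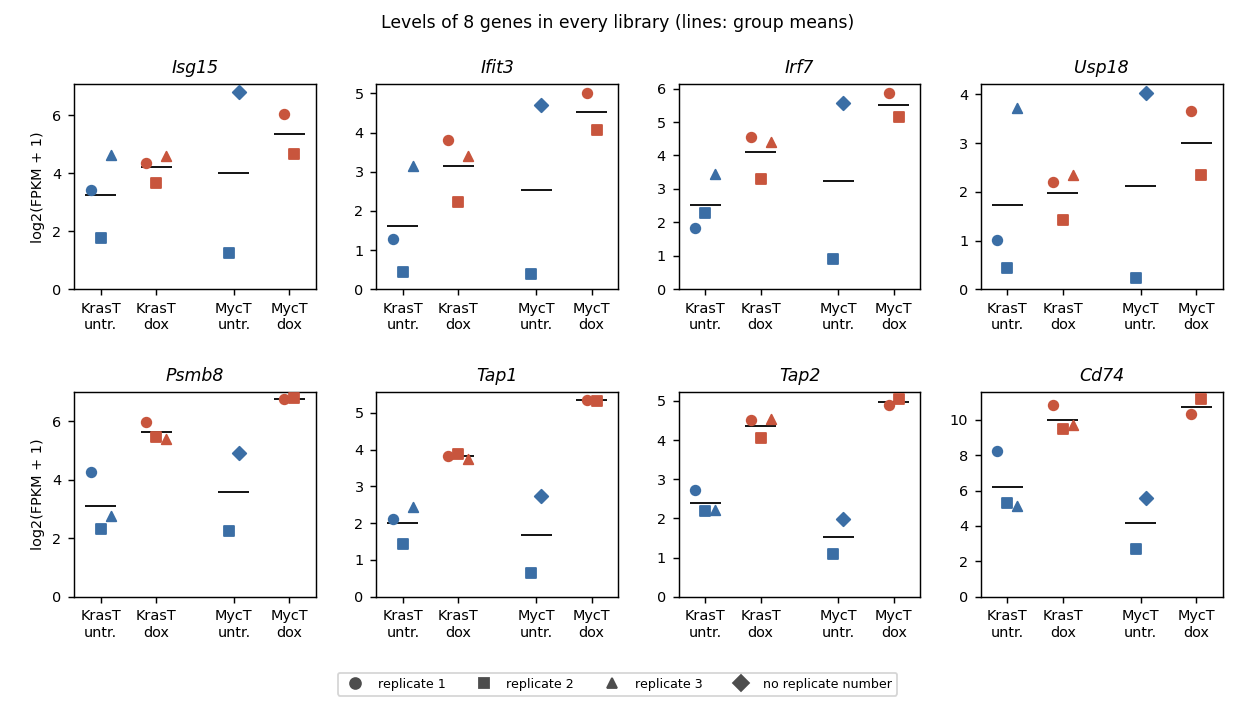
Level of 8 genes as log2(FPKM + 1) (y axis) in each library by group (x axis), untreated in blue and doxycycline in red, lines at group means. The MycT library without a replicate number (diamond) lies with or above the doxycycline libraries for Isg15, Ifit3, Irf7 and Usp18 and below them for Psmb8, Tap1, Tap2 and Cd74.

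The untreated MycT pair differed over the entire list. All 38 members were higher in the unnumbered library than in replicate 2, while 53% of all genes tested in MycT were, and the median difference was 2.30 log2 units against 0.06 for all genes. The position of the unnumbered library against the doxycycline libraries is given by role, and no difference between roles was tested. For antiviral effectors the unnumbered library was above both doxycycline libraries for 6 of 17 genes, between them for 5 and below both for 6. Over all genes tested it was above both for 41.3%, between them for 13.6% and below both for 45.1%. For class I, class II, guanylate-binding and Cd274 genes it was below both for 10 of 10. In the remaining roles the unnumbered library was below both for 2 of 3 immunoproteasome genes, 2 of 3 RNA sensors and 3 of 5 signal transducers. Rsad2, for example, was at 12.3 FPKM there, against 0.150 in replicate 2 and 2.78 and 1.27 after doxycycline, whereas Cd74 was at 47.6 against 1266 and 2296. Which of the 2 untreated libraries is usual for MycT tumours cannot be told from a pair.

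The untreated KrasT libraries differed in which members they led. Replicate 3 had the highest untreated value for 22 of 38 members (57.9%, against 24.6% of all genes tested), among them 13 of 17 effectors and all 3 RNA sensors. It was above all doxycycline libraries for 6 of the 38, against 42.7% of all genes. Replicate 1 had the highest for 16 members (42.1%), near its 45.9% of all genes. Among them were both guanylate-binding proteins, all 3 immunoproteasome genes and both class II genes, where it stayed below all doxycycline libraries. Replicate 2 had the highest for none, though over all tested genes it was highest for 29.6%. Replicate 1 also had the highest untreated KrasT sums of pan-leukocyte, macrophage and dendritic cell markers (273, 853 and 18.1 FPKM). Replicate 3 had 93.8, 315 and 3.60. Of the 273, Cd53 gave 150. T and NK markers too were highest in replicate 1 (4.76 FPKM). Neutrophil markers were highest in replicate 3 (78.9, against 44.6 and 14.5 in replicates 1 and 2). B cell markers were highest in replicate 2 (1.33, against 1.215 and 0.695 in replicates 1 and 3). The part of these cells was not tested.

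Other interferon-stimulated genes outside the 38 gave similar counts. For comparison, 8.46% of all genes tested were called higher in KrasT and 8.11% in the joint MycT fit. Lower calls numbered 1047 of 12696 and 1484 of 12073. Of 39 tested in KrasT, 14 rose and 0 fell, with the largest changes in Ifi27l2a (3.86, limma adjusted p = 0.0349) and Iigp1 (2.89, 0.0376), an immunity-related GTPase. Among the 14, Gbp4, Gbp5, Gbp6, Oas1b and Cxcl9 passed the KrasT filter, which the joint fit also needs, through doxycycline libraries alone. For these genes a rise is partly built in, so the counts favour a rise. Under quantile normalization 7 of the 39 passed. In the joint MycT fit 15 of 39 rose, with Igtp (4.15) and Iigp1 (4.09, adjusted p = 0.0235) the largest, and 1 fell, Ifitm1 (-3.23, 0.0185). Ifitm1 was at 778 and 730.3 FPKM in the untreated and 196 and 32.0 in the doxycycline MycT libraries. Ifi27l2a, like the effectors, was high in the unnumbered untreated MycT library, at 532 FPKM against 7.51 in replicate 2 and 388 and 301 after doxycycline. Over all lists of the pathway outside the 38, 19 of 90 genes were higher and 3 lower in KrasT, 0 of 94 were called in the MycT fit, and 28 of 90 were higher and 4 lower in the joint fit.

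The ligands themselves were hardly detected. Of 9 interferon genes in the tables, 7 to 9 were listed at 0 in each library and none reached the filter. The following 2 were chosen after their values were seen. Ifng, interferon gamma, was listed at 0 in all 5 untreated libraries and above 0 in all 5 doxycycline ones, at 0.0614, 0.301 and 0.0430 FPKM in KrasT and 0.318 and 0.759 in MycT. Ifnb1, interferon beta, was above 0 in the unnumbered untreated MycT library, at 0.780 FPKM, and listed at 0 in the other 9. Values this low may rest on single fragments, and the tables give no fragment counts.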

How the data were processed

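Gene-level FPKM values were used as the authors deposited them, in 1 table for KrasT and 1 for MycT tumours. Per the labels' protocols, total RNA was extracted with an RNeasy kit, made into TruSeq libraries and sequenced on a HiSeq2000. Per the submitters' processing notes, reads went through cutadapt and TopHat, with mm9 as the build. The program that gave the FPKM, its annotation and its use of strand were not given in the sources used here. The number of reads per library is unknown. Relative depth came from the steps between low values. Each table has 23951 rows, of which 27 with a date in place of a gene symbol were not used.

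Groups came from the labels, and columns were matched by the number in their names. The labels give no replicate numbers, so replicates 1 to 3 only name libraries: 39868, 45530 and 45649 are untreated KrasT, 45251, 42274 and 45976 are doxycycline KrasT, and 45751 and 45744 are doxycycline MycT replicates 1 and 2. Untreated MycT replicate 2 is 45746. For 1 untreated MycT column the number is in no label. It has the digits of 39643, the label of untreated MycT replicate 1, with 2 of them exchanged, but was not equated with it, and it entered its group, which its name gives, without a replicate number. A gene was tested where 3 or more KrasT libraries, or 2 or more MycT libraries, reached 1 FPKM. Some genes, among them Ciita, Ifit2, H2-Oa and Gbp6 in KrasT, reached it in doxycycline libraries alone. For genes let in this way a rise is partly built in. Changes of log2(FPKM + 1) were tested two-sided within each table, on all such genes, with limma 3.58.1 (R 4.3.3, trended eBayes). Calls needed a p under 0.05 after Benjamini-Hochberg adjustment. The pseudocount of 1 understates changes of low genes. A joint fit of all 10 libraries gave the difference between the models (the MycT change minus the KrasT change) and a second test of MycT. The fit was tested on simulated data. Promoter windows are RefSeq's for GRCm38.p6, and the plots used Python 3.11.15 and matplotlib 3.10.9.

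The 38 genes and the gene lists were chosen with earlier results of these data known. Values in every library are given for members called in any test, for the most abundant and the most changed member of each role, and for 12 fixed members. Other pathway genes and cell markers are given as counts, with at most 2 called genes per direction. Ly6g, Rnf213, Il28a and Il29 were not matched in the tables and were not used here, and the counts for the list of receptors and JAK kinases are not reported here. Alternatives were a pseudocount of 0.1, no filter, median-ratio scaling, quantile normalization, the joint fit and leaving out each library. Leaving out each library from the joint MycT fit was added after seeing the data.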

Additional observations from a re-analysis of the deposited data

How the results depend on the processing

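No paired analysis was possible because the numbers in the labels differ for every library, and the replicate numbers used here only name libraries. With all libraries, 10 to 13 KrasT members were called under the other pseudocount, no filter and both scalings, and 8 in the joint fit. Leaving out 1 library gave 0 to 16 (12 in the main setting). Over all genes the KrasT calls numbered 2121, 1078 under quantile normalization and 113 to 4223 with 1 library left out. Median-ratio scaling moved the KrasT median of all genes by 0.11 and the calls from 1074 higher and 1047 lower to 1150 higher and 701 lower. Quantile normalization moved the MycT median by -0.12. KrasT members without overlap numbered 16, and 16 to 30 with 1 library left out (25 without doxycycline replicate 2, 30 without untreated replicate 3, against 20.6% and 19.4% of all genes tested). In MycT they numbered 23, and 23 to 38 (38 without the unnumbered library, against 42.6% of all genes).

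In MycT, 0 members were called except in the joint fit (16). All genes called numbered 5, 0 without a filter, 2463 in the joint fit and 0 to 0 with 1 library left out. Within the joint fit, leaving out 1 library gave 3 to 25 members and 542 to 3542 genes. For the difference between models, members called were 0, and 0 to 2 with 1 library left out, while all genes were 29, 18 with a pseudocount of 0.1, 88 without a filter, 17 under quantile normalization and 0 to 1522 with 1 library left out.

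Directions of some uncalled members turned. In KrasT, Usp18 was -0.19 and Rsad2 -0.35 under quantile normalization, and with 1 library left out they ran from -0.39 to 1.26 and from -0.10 to 0.83. In MycT, Rsad2 was 0.17 with a pseudocount of 0.1. With 1 MycT library left out, the log2 change ran from -0.0435 to 4.61 for Irf7, -1.02 to 2.77 for Usp18, -0.33 to 1.67 for Ifih1, -1.44 to 4.12 for Isg15, -0.22 to 3.13 for Ifit1, -0.34 to 2.05 for Ifit2, -0.18 to 4.16 for Ifit3, -2.19 to 1.35 for Rsad2, -0.72 to 2.66 for Oas1a, -1.32 to 2.15 for Oasl1, -0.63 to 1.92 for Mx1, -1.09 to 1.10 for Bst2 and -0.24 to 0.97 for Psmb10. Each of these lows came without untreated replicate 2 and each high without the unnumbered library. The cause was not tested. With 2 libraries per group, the MycT fit alone can call few genes, and low values such as those of Ciita, Nlrc5 and Ifng rest on an unknown number of fragments.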
